A study of Mus musculus with 8 samples.

Results

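The expression of 9 genes of autonomic neurons (Phox2a, Ret, Th, Dbh, Hand2, Stmn2, Elavl4, Gap43 and Chrna3) was followed across the 8 arrays of a Sox9 deletion experiment in the embryonic mouse pancreas. Every non-control probe that the array files name for one of them was taken, which gave 13 probes among 41174 on the array and 9 genes among 27745 named features. All 9 genes had at least 1 probe that could be tested, and 11 of the 13 probes passed the detection filter (marked well above background by the scanner software on 4 or more of the 8 arrays).

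The tissue was pancreatic epithelium, dorsal and ventral together, dissected at stage e15.5. The mutant group held 4 RNA pools of Sox9 fl/fl; Rosa26-CreER embryos, in which tamoxifen activates a Cre recombinase that removes the loxP-flanked Sox9 allele. The wild-type group held 4 RNA pools of Rosa26-CreER littermates without floxed Sox9, so both groups carried CreER, and the dams of both were injected at e12.5 with tamoxifen (6 mg per 40 g). The Rosa26 locus is active in most cell types, so CreER was not restricted to the epithelium. The embryos had a mixed FVB/N, C57Bl/6J and CD1 background. Each pool joined the RNA of 4 pancreata, of which about 250 ng was labelled with Cy3 for a one-colour Agilent array, and the spread between arrays is therefore a spread between pools. In such bulk RNA, fewer cells of a type and less RNA per cell cannot be told apart. All wild-type arrays lay on one slide and all mutant arrays on another, so slide and genotype cannot be told apart in any difference below.

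Autonomic neurons of the pancreas come from the neural crest, whose cells enter the organ during development, gather into intrapancreatic ganglia and send and receive nerve fibres. Sympathetic and parasympathetic precursors share a set of regulators, among them the homeodomain protein Phox2a and the bHLH protein Hand2. Noradrenergic cells then turn on the enzymes that make noradrenaline, tyrosine hydroxylase (Th) and dopamine beta-hydroxylase (Dbh). The growth of their axons uses general neuronal proteins such as stathmin-2, HuD and GAP-43, ligands of the GDNF family signal to them through the receptor tyrosine kinase Ret, and ganglionic transmission uses nicotinic receptors with the alpha3 subunit.

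The 2 genes of noradrenaline synthesis varied most among the 9 when mutant pool 2, an array that stands apart, was left out, and the 250 bases upstream of their transcription start are shown here because Phox2a is known to act on the Dbh promoter and cyclic AMP signalling on that of Th. They come from RefSeq (assembly GRCm38.p6), at chr7:142899996-142900245 on the minus strand for Th and at chr2:27165257-27165506 on the plus strand for Dbh. Capitals mark the cyclic AMP response element TGACGTCA and the homeodomain core ATTA, on either strand (TAAT on the other).
Th: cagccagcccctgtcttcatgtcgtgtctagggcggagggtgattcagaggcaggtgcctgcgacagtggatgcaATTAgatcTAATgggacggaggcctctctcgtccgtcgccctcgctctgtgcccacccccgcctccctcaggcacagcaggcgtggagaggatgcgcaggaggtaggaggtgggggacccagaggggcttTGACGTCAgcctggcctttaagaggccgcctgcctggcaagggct
Dbh: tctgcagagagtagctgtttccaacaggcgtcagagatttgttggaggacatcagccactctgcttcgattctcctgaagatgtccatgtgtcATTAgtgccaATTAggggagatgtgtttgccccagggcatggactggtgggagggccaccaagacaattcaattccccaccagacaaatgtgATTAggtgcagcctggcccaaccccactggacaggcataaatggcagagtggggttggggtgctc
The Th stretch held 1 TGACGTCA, from 45 to 38 bases before the start, and 2 ATTA cores. The Dbh stretch held no TGACGTCA and 3 ATTA cores, the nearest from 65 to 62 bases before the start. Of 32851 mouse promoters of the same length, 1.55% held TGACGTCA and 54.9% held ATTA on either strand. The E-box CANNTG, the site type of bHLH proteins such as Hand2, occurred 1 time in Th, 2 times in Dbh and in 66.2% of all. Promoter entries were used for 6 of the 9 genes. Those of Phox2a held none of these motifs, those of Hand2 held 5 ATTA cores and 2 E-boxes, and those of Chrna3 held no ATTA and 2 E-boxes. The 4 entries of Elavl4 held 0 to 4 ATTA cores and 0 to 3 E-boxes each, and no TGACGTCA. A match in these letters is a description and not a measured binding site.

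The arrays were checked first. On 7 of the 8 arrays the median processed signal lay between 200.0 and 252 scanner units and 69.0% to 73.4% of probes were well above background. Mutant pool 2 stood apart, with a median of 735 units, 85.9% of probes above background and high negative controls (a log2 level of -6.90, against -8.93 to -8.26 on the others). Its median correlation with the arrays of its genotype was 0.923, against 0.994 to 0.996 on the others. The differences of the 9 genes below are given with and without it. Those of Sox9 and of other genes are over all 8 arrays unless stated. All levels are log2 signals relative to the 75th percentile of their array, differences are mutant minus wild type, and levels of different probes were not compared. Sox9 itself measured 1.83 ± 0.07 (SD, n = 4) in wild type and 0.50 ± 0.08 in the mutant at its brightest probe, a difference of -1.33 (SE 0.07, 2.51-fold lower, adjusted p = 8.03e-04, limma with Benjamini-Hochberg adjustment). Its other probes gave -2.51 (called) and 0.63 (not called). The exact two-sided permutation test at the brightest probe gave p = 0.0286, the smallest that 4 against 4 arrays allow. Markers of epithelium (6 of 6 tested) were present as labelled, with a summed linear level between 161 and 175 in wild type and 162 and 225 in the mutant. Of these 6, Pdx1 was called lower (-1.05, adjusted p = 0.00169, limma) and 0 higher, while 3.41% and 2.11% of all features were. Without mutant pool 2 the list had 1 called lower and 3 higher, against 10.6% and 6.79% of all features. The 8 mesenchymal markers were well above background on every array (summed level 208 to 247 in wild type and 191 to 234 in the mutant).

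Of the 9 genes, Elavl4 fell in the mutant and none rose at an adjusted p under 0.05, while 5.52% of all 19380 features were called (3.41% lower and 2.11% higher). The median difference of the 9 was -0.70, while that of all features was -0.0048. The difference lay below 0 in 6 of the 9 and in 9821 of the 19380 features. An unadjusted limma p under 0.05 was reached by 3 of the 9 and by 25.5% of all features. Without mutant pool 2, Elavl4 was again the 1 gene called (17.4% of features were called, 10.6% lower and 6.79% higher). In that fit 8 of the 9 differences lay below 0, as did those of 10815 of the 19380 features. An unadjusted p under 0.05 was reached by 5 of the 9 and by 6804 of the 19380 features. The median difference was -0.90 for the 9 against -0.03 over all features. Tested probe by probe, none of the 11 member probes was called by limma, 3 had an unadjusted p under 0.05, and 3.84% of all 29443 probes were called. Without mutant pool 2, 1 probe, of Elavl4, was called (adjusted p = 0.0325, limma) and 5 had an unadjusted p under 0.05. The share of all probes at an unadjusted p under 0.05 was not counted in either fit. In Th, Dbh, Ret, Hand2, Gap43 and Chrna3 the 4 wild-type pools spanned more than the difference between the genotype means over all 8 arrays.

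**Figure D1:**
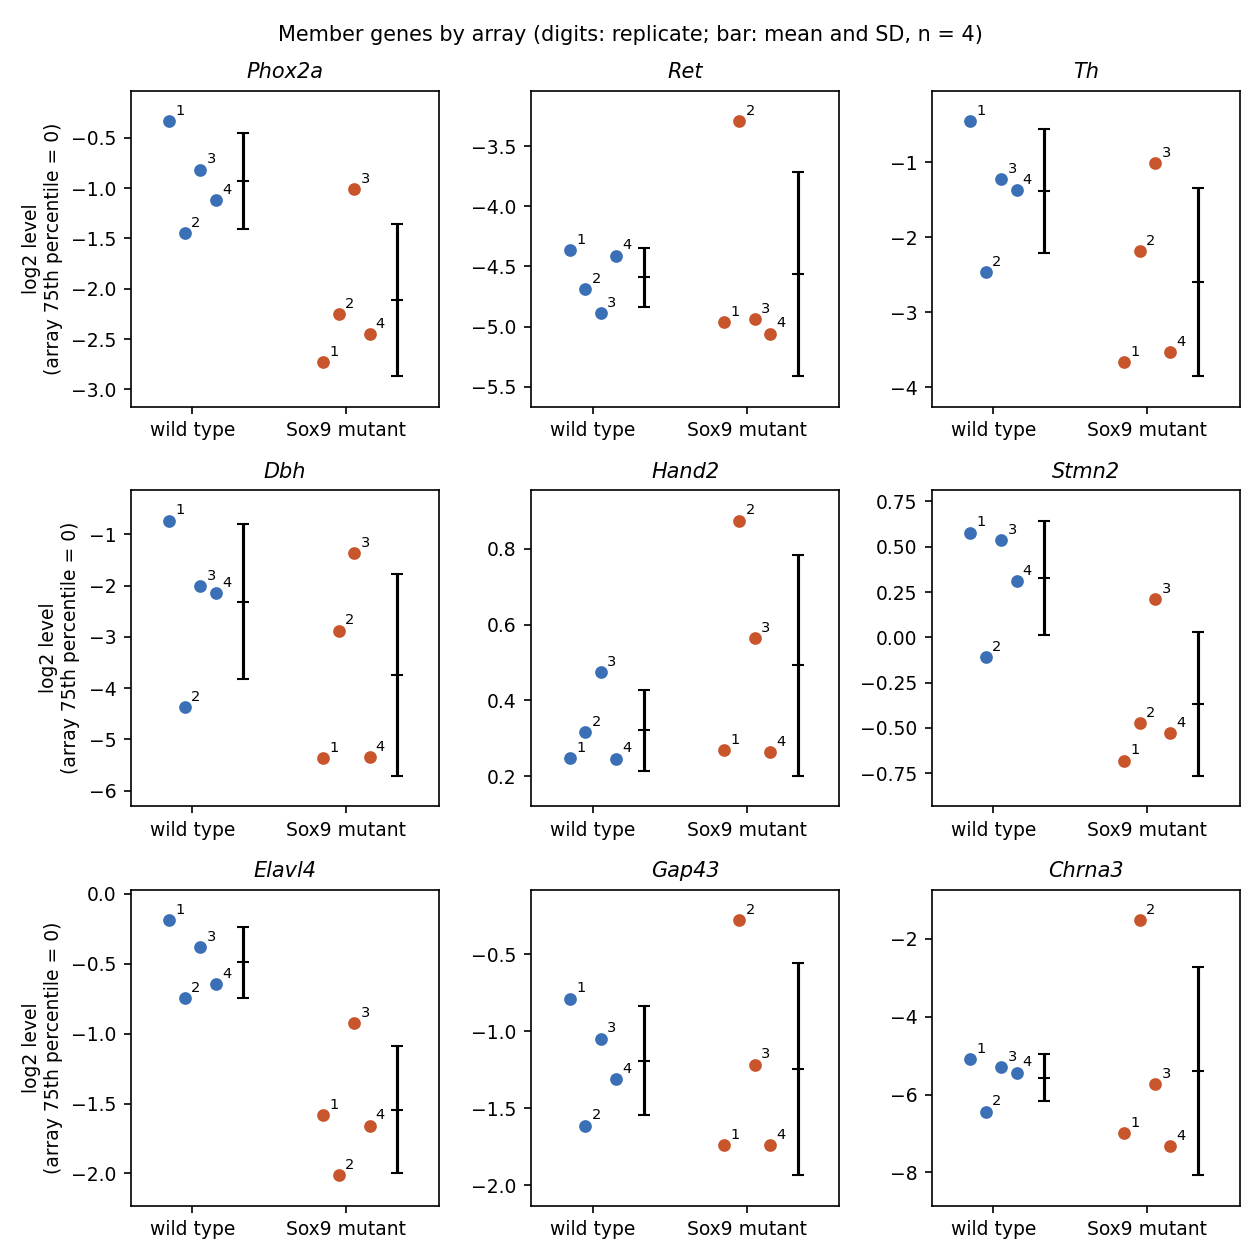
Log2 levels of the 9 genes at their brightest probe (y axes, relative to the 75th percentile of each array) in 4 wild-type and 4 Sox9 mutant pools, with the replicate number beside each point and the mean and SD of the 4 pools at the right of each group. In 7 panels wild-type pool 1 is the highest and pool 2 the lowest wild-type point, and only in the Elavl4 panel do all mutant points lie below all wild-type points.

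Among the regulators, Phox2a is a homeodomain protein required for noradrenergic neurons, and its probe (A_51_P209483, chr7:101696190-101696249 on mm8) was well above background on all arrays. Phox2a measured -0.33, -1.45, -0.82 and -1.12 in wild-type pools 1 to 4 and -2.73, -2.25, -1.01 and -2.45 in mutant pools 1 to 4. Mutant pools 1, 2 and 4 lay below every wild-type pool and mutant pool 3 lay among them. The difference was -1.18 (SE 0.40, 95% interval -2.13 to -0.24), or 2.27-fold, and did not pass adjustment (adjusted p = 0.130 by limma; -1.13 and 0.119 without mutant pool 2). Without mutant pool 3 it was -1.55 and passed (adjusted p = 0.0460). Within wild type the highest and lowest pool differed 2.16-fold, about as much as the genotype means.

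Hand2, a bHLH regulator of sympathetic differentiation that mesenchymal cells also make, behaved differently. Its brighter probe (A_51_P147850, whose annotated interval chr8:60214596-60215955 spans 1360 bases) measured 0.25, 0.32, 0.47 and 0.25 in wild type and 0.27, 0.88, 0.56 and 0.26 in the mutant. The groups overlapped, and the within-genotype SD over the 7 other arrays was 0.14, close to the 0.12 of the median feature. The difference was 0.17 (SE 0.15, adjusted p = 0.477 by limma), and 0.04 without mutant pool 2 (adjusted p = 0.777). At the second probe (A_52_P420479) the levels were -1.17, -0.91, -0.70 and -0.93 in wild type and -0.85, 0.59, -0.49 and -0.56 in the mutant, a difference of 0.60 that did not pass (adjusted p = 0.268 in the fit over probes) and that measured 0.30 without mutant pool 2. Of the 8 mesenchymal markers 2 were called higher in the mutant, and their part in the Hand2 values was not tested.

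Th, the rate-limiting enzyme of catecholamine synthesis, was read by 10 spots of probe A_51_P486223 (chr7:142703402-142703461, minus strand). Th measured -0.45, -2.47, -1.23 and -1.38 in wild type and -3.66, -2.19, -1.01 and -3.54 in the mutant. Wild-type pool 1 and mutant pool 3 were the highest of their genotypes, and mutant pools 1 and 4 lay below all wild-type pools. The difference of -1.22 (SE 0.68, interval -2.80 to 0.37) did not pass (adjusted p = 0.297, limma; -1.35 and 0.233 without mutant pool 2). Its pools spanned 4.04-fold in wild type and 6.28-fold among mutant pools 1, 3 and 4. The 9 or 10 used spots of this probe on an array had an SD of 0.03 to 0.08.

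Dbh, which turns dopamine into noradrenaline, had the widest spread of the 9 without mutant pool 2 (probe A_51_P444543, chr2:27003570-27003629). Its levels were -0.73, -4.38, -2.005 and -2.14 in wild type and -5.37, -2.88, -1.37 and -5.34 in the mutant. The order of the pools was that of Th, and the groups overlapped. Wild-type pool 1 was above pool 2 by 3.65 on the log2 scale, and mutant pool 3 was 16.0-fold above pool 1. The genotype difference of -1.43 (SE 1.12, interval -4.04 to 1.19) did not pass (adjusted p = 0.439, limma; -1.71 and 0.347 without mutant pool 2). The within-genotype SD over the 7 other arrays was 1.87 for Dbh, above that of 99.9% of features, and 1.14 for Th (99.7%), against 0.12 for the median feature.

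Ret, the signalling receptor for GDNF family ligands, was read by 10 spots of probe A_51_P324191 (chr6:118119504-118119563). It measured -4.36, -4.69, -4.89 and -4.41 in wild type and -4.96, -3.29, -4.94 and -5.06 in the mutant. Mutant pool 2 was the highest of the 8 and the other 3 mutant pools lay below every wild-type pool, as they did in 20.9% of all features. With all arrays the difference was 0.03 (SE 0.40, adjusted p = 0.972, limma). Without mutant pool 2 it turned to -0.40 and still missed the threshold (adjusted p = 0.0807).

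Chrna3 encodes the nicotinic receptor subunit of autonomic ganglia. Its probe A_52_P577705 measured -5.08, -6.44, -5.30 and -5.44 in wild type and -6.99, -1.52, -5.74 and -7.33 in the mutant, and it was not well above background in wild-type pool 2 and in mutant pools 1 and 4. Mutant pool 2 was far above the rest. The difference was 0.17 (SE 1.23, adjusted p = 0.938, limma) with all arrays and -1.12 without mutant pool 2 (adjusted p = 0.129). A second probe (A_51_P203200) was well above background only in mutant pool 2 and was not tested.

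Elavl4 encodes HuD, an RNA-binding protein of neurons that pancreatic endocrine cells also make. Its brighter probe (A_51_P503722, chr4:109704102-109704161) measured -0.19, -0.75, -0.38 and -0.64 in wild type and -1.58, -2.01, -0.92 and -1.66 in the mutant. No mutant pool reached the lowest wild-type pool, which held for 15.2% of all features and for no other of the 9 genes. Elavl4 fell by 1.05 on the log2 scale (2.08-fold, SE 0.24, interval -1.61 to -0.50, adjusted p = 0.0493 by limma; -0.90 and 0.0305 without mutant pool 2). The call was close to the threshold: it was lost without any single wild-type pool or without mutant pool 1 or 4 (adjusted p from 0.0935 to 0.144), and the same probe reached 0.0600 when all probes were tested. The second probe (A_51_P503729) measured -2.56, -3.34, -2.65 and -3.37 in wild type and -3.86, -1.10, -2.85 and -3.98 in the mutant, with a difference of 0.03 (SE 0.63, adjusted p = 0.977), or -0.58 without mutant pool 2 (adjusted p = 0.260). The endocrine markers moved with genotype too, with 6 of 10 called lower (9 without mutant pool 2). Their summed linear level was 173 to 217 in wild type and 66.4 to 160 in the mutant, with mutant pool 2 the lowest. Their part in the Elavl4 difference was not tested.

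Stmn2, a microtubule-destabilising protein of growing axons, measured 0.58, -0.11, 0.54 and 0.31 in wild type and -0.68, -0.47, 0.21 and -0.53 in the mutant at probe A_51_P164998 (chr3:8544334-8544393). Mutant pool 3 lay among the wild-type pools and the other 3 mutant pools lay below them. The difference of -0.70 (SE 0.23, interval -1.24 to -0.15), or 1.62-fold, did not pass (adjusted p = 0.124, limma; -0.66 and 0.113 without mutant pool 2). A second Stmn2 probe was well above background on 2 wild-type and 1 mutant array and was not tested.

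Gap43, a membrane protein of growth cones, was read by probe A_51_P290065, whose annotated interval spans 48166 bases of chromosome 16. Levels were -0.79, -1.61, -1.05 and -1.31 in wild type and -1.74, -0.28, -1.22 and -1.74 in the mutant. The groups overlapped, with mutant pool 2 the highest of all. The difference was -0.05 (SE 0.35, adjusted p = 0.931, limma) and -0.38 without mutant pool 2 (adjusted p = 0.262).

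**Figure D2:**
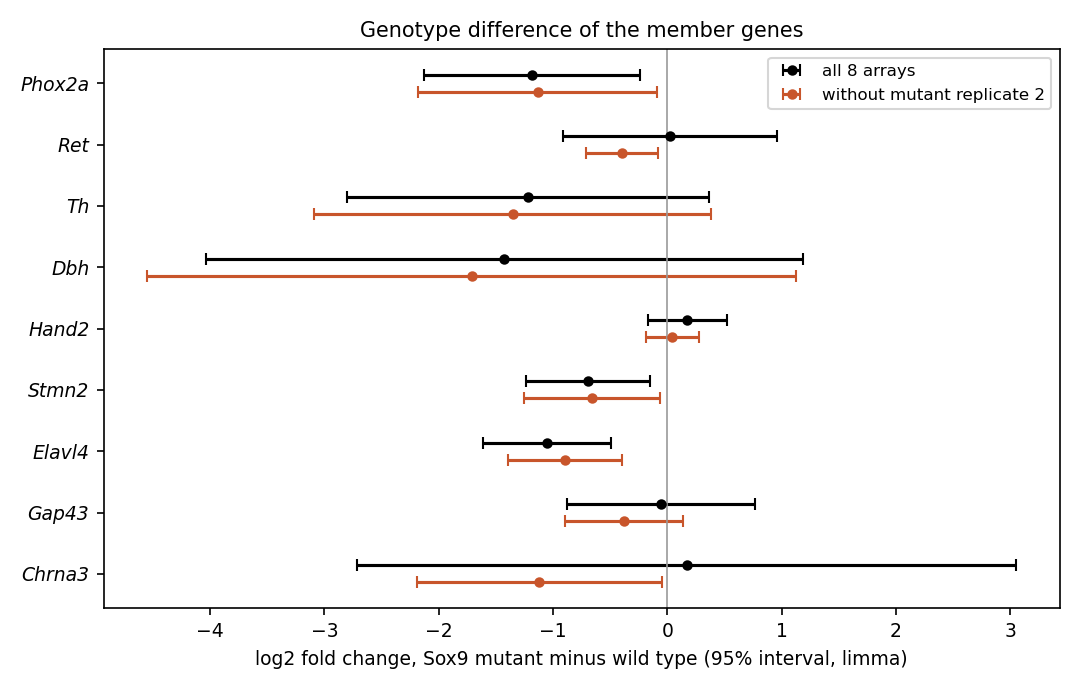
Mutant minus wild-type difference of each of the 9 genes on the log2 scale (x axis, limma estimate as points and its 95% interval as bars), over all 8 arrays in black and without mutant pool 2 in orange. The Elavl4 interval runs from -1.61 to -0.50 over all arrays, and leaving out mutant pool 2 moves Chrna3 from 0.17 to -1.12 and Ret from 0.03 to -0.40.

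The genes shared an order of pools within each genotype. In 7 of the 9 (all but Ret and Hand2) wild-type pool 1 was the highest and pool 2 the lowest of their genotype, as in 7.69% of all features. Pool 3 was also above pool 4 in these 7 genes, a full order that 3.85% of features had. In all 9, mutant pool 3 was the highest of mutant pools 1, 3 and 4, which held for 27.9% of all features. Pool 1 highest and pool 2 lowest in wild type, together with pool 3 highest of the 3 mutant pools, are called both orders here, without regard to wild-type pools 3 and 4. Both orders held in 7 of the 9 genes and in 2.58% of features. In 6 of the 9 genes (Phox2a, Th, Dbh, Stmn2, Gap43 and Chrna3) mutant pool 3 lay within the range of the wild-type pools, as it did in 40.1% of features. This order was seen in these data and described on the same data, so no test is attached to it. Outside mutant pool 2, the pools with high Phox2a were thus also those with high Th, Dbh, Stmn2 and Gap43.

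The mean of the 9 genes, each centred on its own mean over 7 arrays, was 0.88, -0.28, 0.49 and 0.35 in wild-type pools 1 to 4 and -0.93, 0.40 and -0.92 in mutant pools 1, 3 and 4. The 18 other pan-neuronal genes followed the same course, with 0.80, -0.25, 0.33 and 0.22 and then -0.71, 0.27 and -0.66, and 16 of the 18 held both orders. Of 9 markers of Schwann cells and glial precursors, which reach the pancreas from the same neural crest, none held both orders, and their mean lay between 0.20 and 0.42 in wild type and between -0.48 and -0.26 in mutant pools 1, 3 and 4. Endocrine markers (0 of 10), epithelial markers (0 of 6) and endothelial markers (0 of 4) did not hold both orders either, and mesenchymal markers did in 1 of 8. The mutant part of the order was not particular to neuronal genes. Mutant pool 3 was the highest of mutant pools 1, 3 and 4 in 10 of 10 endocrine, 7 of 8 mesenchymal and 6 of 9 glial markers. The same held in 2 of 4 endothelial and 0 of 6 epithelial markers. The summed linear level of 4 adrenocortical markers was 0.16 to 0.23 in wild type and 0.19 to 0.88 in the mutant, where 1 is the 75th percentile of the array. The highest of these sums was that of mutant pool 2. The mean of these markers, centred in the same way, was 2.03 in mutant pool 2 and 0.24, -0.07 and 0.02 in mutant pools 1, 3 and 4. In wild-type pools 1 to 4 it was 0.21, 0.07, -0.08 and -0.39. Of the 4, Cyp11a1 had every mutant pool above every wild-type pool (difference 0.99, adjusted p = 0.0773, limma), as in 10.6% of all features. Without mutant pool 2 it was the 1 adrenocortical marker called (0.72, adjusted p = 0.0123), when 6.79% of all features were called higher.

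**Figure D3:**
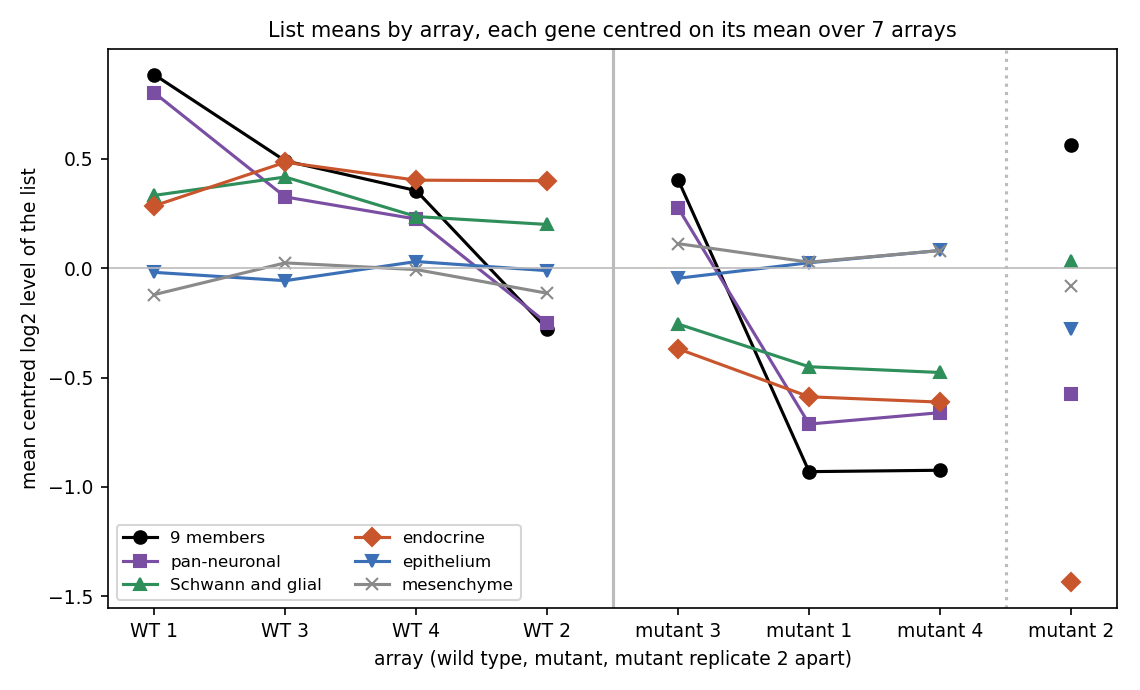
Mean log2 level of each gene list by pool (y axis), every gene centred on its mean over 7 arrays, with pools placed by the level of the 9 genes within each genotype and mutant pool 2 set apart at the right; lines only join points of one list. The 9 genes and the pan-neuronal list run from 0.88 and 0.80 in wild-type pool 1 down to -0.28 and -0.25 in pool 2 and return to 0.40 and 0.27 in mutant pool 3, while the glial and endocrine lists step down between genotypes.

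Across those 7 arrays the features most like the mean of the 9 genes were Vstm2l (Pearson r = 0.999), Kif5a (0.996), Kif5c (0.996), Snap25 (0.995), Ppp2r2c (0.995) and Nrsn1 (0.994), given as a description of 7 pools and without a test. Kif5a and Kif5c encode heavy chains of the kinesin motor of axons, and Snap25 encodes a protein of synaptic vesicle fusion. Vstm2l measured 1.09, -0.83, 0.30 and 0.16 in wild type and -2.06, -1.26, 0.27 and -1.91 in the mutant. All 6 held both orders, which follows from picking them by likeness to a mean with that order. None was called (adjusted p between 0.149 and 0.219, limma). With all 8 arrays, 6 other features were most alike and none of these 6 was among them.

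The other genes of the same neurons were grouped in 6 lists. Of 62 tested genes among 64 listed, 6 fell, none rose and 47 lay below 0, with a median difference of -0.36; over all features 3.41% were called lower and 9821 of 19380 lay below 0. Without mutant pool 2, 15 fell and none rose, against 10.6% of all features called lower. The 6 were Insm1, Isl1, Nrtn, Gfra3, Ngfr and a probe matched to Nos1 only through a synonym, without which 5 of 61 fell. In each of the 6 every mutant pool was lower than every wild-type pool, as in 15.2% of all features. The 6 were called on these same values, so this separation is not a further result.

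The list of regulators held 8 genes, of which 2 fell. Insm1, a zinc-finger protein, measured -0.43, -0.47, -0.54 and -0.52 in wild type and -1.996, -2.57, -1.95 and -2.12 in the mutant (-1.67, adjusted p = 0.00262, limma). Isl1, a LIM homeodomain protein, measured 0.82, 0.76, 0.94 and 1.14 in wild type and 0.09, -0.21, 0.20 and 0.05 in the mutant (-0.88, adjusted p = 0.0101). Both are also defining genes of endocrine cells and stand on that marker list too, and neither held the wild-type order of the 9 genes.

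None of the 12 genes of transmitter synthesis and transport was called (5 held both orders), and the smallest p was that of Ddc, the decarboxylase that follows Th (-0.55, adjusted p = 0.0608, limma; -0.46 and 0.0342 without mutant pool 2). Slc6a2, the noradrenaline transporter, was singled out after its values were seen. It measured -0.57, -4.97, -2.04 and -2.19 in wild type and -8.63, -6.81, -1.45 and -8.51 in the mutant, and of the mutant pools it was well above background only in pool 3, so the others have no order. Wild-type pool 1 was the highest and pool 2 the lowest. The fitted difference of -3.90 (SE 1.73) rests on values at background and did not pass (adjusted p = 0.208). Of 4 tested nicotinic subunits none was called, and Chrna4 had the smallest p (-0.33, adjusted p = 0.408; -0.57 and 0.0217 without mutant pool 2).

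Among 6 genes of neuropeptides and nitric oxide, 1 probe fell, and its gene is uncertain. The array names it 2310005C01Rik, after a cDNA clone of unclassified product that RefSeq lists among the synonyms of Nos1, the neuronal nitric oxide synthase. It measured -2.23, -2.16, -1.90 and -2.18 in wild type and -3.67, -5.31, -3.61 and -3.79 in the mutant, where pool 2 was not well above background. The difference was -1.98 (SE 0.37, adjusted p = 0.0297, limma; -1.57 and 5.13e-04 without mutant pool 2), and the call was lost without any 1 of the other 7 pools. The probe that the array itself names Nos1 was well above background on 0 wild-type arrays and 1 mutant array (pool 2) and was not tested, so no level of Nos1 is read from these values.

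Of 14 tested genes of GDNF and neurotrophin signalling, 3 fell. Nrtn, a ligand that acts on parasympathetic and enteric neurons, measured 0.91, 0.91, 0.90 and 0.86 in wild type and 0.48, 0.09, 0.39 and 0.41 in the mutant (-0.55, adjusted p = 0.0205, limma). Gfra3, the co-receptor with which Ret binds artemin, measured 2.05, 1.73, 2.05 and 2.15 against 0.92, 0.15, 1.22 and 0.80 (-1.22, 2.33-fold, adjusted p = 0.0266). Ngfr, the low-affinity neurotrophin receptor of neurons and Schwann cells, measured 1.70, 1.28, 1.71 and 1.52 against 0.84, 0.64, 1.12 and 0.70 (-0.73, adjusted p = 0.0316). Gdnf, the other Ret ligand of enteric precursors, named after its values were seen, measured -2.71, -2.83, -2.86 and -2.93 against -3.76, -1.26, -3.87 and -4.12 (-0.42, adjusted p = 0.668); without mutant pool 2 it fell by 1.08 on the log2 scale (adjusted p = 0.00138). The calls of Nrtn and Gfra3 were lost without any 1 wild-type pool or mutant pool 4, that of Nrtn also without mutant pool 3, and that of Gfra3 also without mutant pool 1. Ngfr lost its call without wild-type pool 1, 3 or 4 or mutant pool 1 or 4.

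The 18 pan-neuronal genes all lay below 0 (from -1.95 to -0.18, median -0.56), and none was called by limma over all 8 arrays, 2 without mutant pool 2. Nefh, a neurofilament subunit, had the smallest p (-0.38, adjusted p = 0.0671), and its genotypes did not overlap. Of the 9 tested genes of the Schwann and glial list 4 fell, and 5 without mutant pool 2 (3.41% and 10.6% of all features were called lower). The 4 were S100b (-1.63, adjusted p = 0.00769), Sox10 (-1.05, adjusted p = 0.00596), Fabp7 (-1.01, adjusted p = 0.0325) and Ngfr. Sox10, a defining transcription factor of neural crest glia, measured -0.22, -0.37, -0.16 and -0.29 in wild type and -1.39, -1.48, -0.98 and -1.39 in the mutant. Its wild-type pools had an SD of 0.09 and its groups did not overlap. The Sox10 call was kept in 15 of 18 alternatives. It was lost with the mean of all its probes (-0.68, adjusted p = 0.224, limma), quantile normalization (adjusted p = 0.0666) and median centring (adjusted p = 0.208). The call of Fabp7 was lost without any 1 wild-type pool or mutant pool 1 or 4. The summed linear level of the glial markers was 19.4 to 20.8 in wild type and 12.7 to 15.6 in the mutant. Whether lists differed from each other in their genotype difference was not tested.

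**Figure D4:**
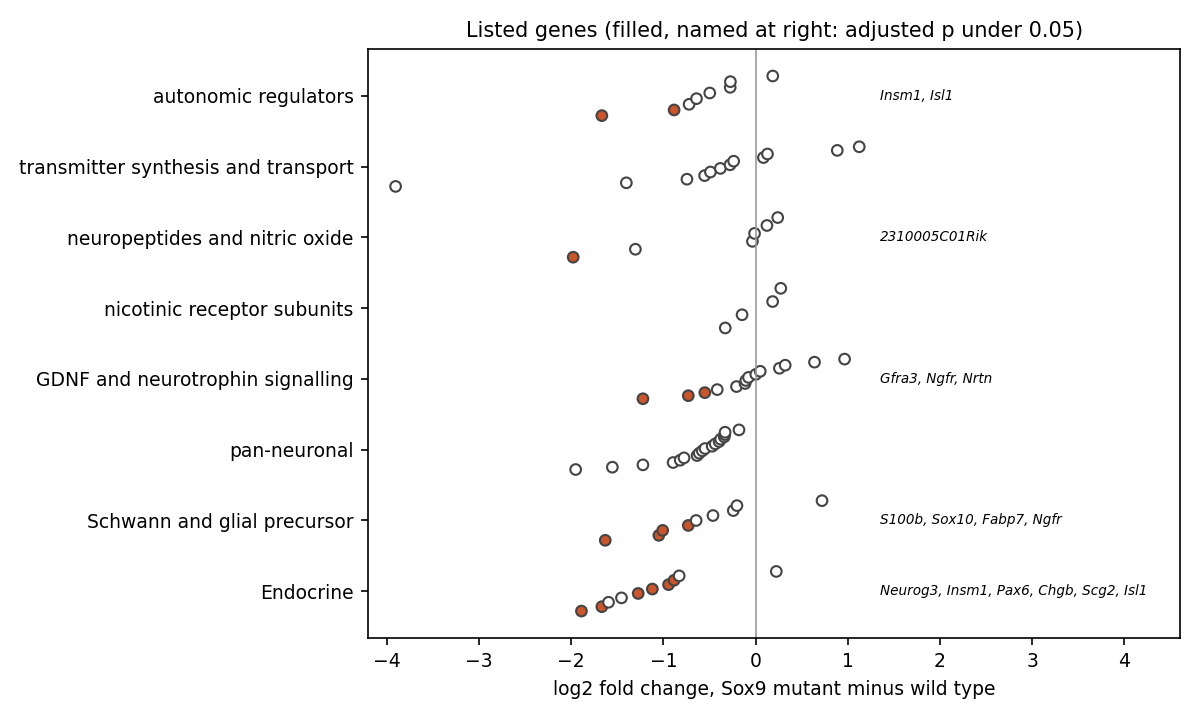
Mutant minus wild-type difference on the log2 scale (x axis) of every tested gene of 8 lists (rows; points in a row are offset only for legibility), with genes at an adjusted p under 0.05 filled and named at the right (2310005C01Rik by its array name). All filled genes lie below 0, and the pan-neuronal row has 18 genes below 0 and none filled.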

How the data were processed

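Per the file headers, the scanner output was made with Agilent Feature Extraction 9.5.3.1 for array design 014868, with probe coordinates on mm8. The deposited processed signal is a linear intensity whose background the software had subtracted within the array, without normalization between arrays. The authors' series table gives linear intensity too. The submitters' processing notes name limma, and the steps are not given in the sources used here. The values of that table correlated with the mean spot signal at 0.9997 or more on 7 arrays and at 0.986 on mutant pool 2, and their median log2 was 8.30 to 8.32 and 8.47. They served only as an alternative, in which Ret and Th were not tested.

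After control and outlier spots were dropped, log2 signals of a probe's spots were averaged and set relative to each array's 75th percentile. Of 41174 probes, 29443 were well above background on at least 4 of 8 arrays. Each gene name was represented by its brightest probe, by the mean of all 8 arrays, which gave 19380 features, 15920 of them with a current symbol (RefSeq GRCm38.p6, used for names and promoters only; 24375 probes matched by accession, 6301 by symbol, 2426 by synonym and 8072 not). One model with genotype was fitted with limma 3.58.1 in R 4.3.3 (version 1.17.8 of data.table; lmFit and eBayes, two-sided, Benjamini-Hochberg over all features, threshold 0.05), and a second over all probes. The number of arrays limits the precision. The p-values set a difference against the spread between pools of a genotype, all on 1 slide, so spread between slides is not in them. The procedure was tested on simulated data.

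The 9 genes, the lists, the leaving out of mutant pool 2 and the rule for naming genes were chosen with earlier results of these data known. The rule named the 9 genes, Sox9, the called genes of each neuronal list (at most 5) or the gene with the smallest p, and the 6 features most alike. Called glial markers, Slc6a2 and Gdnf were added after their values were seen. Summed levels are sums of linear values relative to the 75th percentile. Mutant pool 2 had the lowest mutant sum of the epithelial, mesenchymal, endocrine and glial markers and the highest of the adrenocortical markers. Replicate numbers were checked for pairing: same-numbered pools deviated together with correlations of 0.02, -0.02, 0.05 and 0.13, so the numbers were read as names.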

Additional observations from a re-analysis of the deposited data

Results flagged for a closer look

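Ret stood out for one pool. In the 4 mutant pools, mutant pool 2 measured -3.29 and its nearest neighbour -4.94, and this gap took up 0.933 of the group's range, above the 95% critical value of Dixon's test for 4 samples. Of 24 groups examined in this way (both genotypes of the 11 tested member probes and of Sox9's brightest probe), 1 was marked, and chance marks about 1 in 20 groups. The same pool was the highest of its genotype at Chrna3, Gap43, both Hand2 probes and the second Elavl4 probe. Its dim negative controls read high on the whole array. The cause was not tested.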

How the results depend on the processing

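Of 518 values for 29 named genes under up to 18 alternatives each, 415 kept direction and side of the threshold, 73 lost the call, 12 gained one and 18 turned direction. The number of features called by limma was 1070, and 45 with median centring (where the median of all features moved to -0.40), 76 with normexp (21.1% of calls higher, against 38.2%), 397 without the filter, 711 with the mean of all probes, 2188 with the authors' table, 4797 with array weights, 1609 with trend and robust options, and 356 to 3375 with 1 pool left out. Members called numbered 1, but 0 with median centring, quantile normalization, normexp, no filter or the mean of probes, and 0 to 2 with 1 pool left out. Member probes called numbered 0, but 1 with the authors' table, array weights or trend and robust options, and 0 to 1 with 1 pool left out. With the replicate number as a block, 145 features and 0 members were called (Elavl4 adjusted p = 0.0779), and not every pool correlated best with its own number. Sox9 missed the threshold with median centring (-1.73, adjusted p = 0.110). None of the 6 most alike features was shared when all 8 arrays were used (0 of 6). Elavl4 kept its call in 6 of 18 alternatives, between -1.45 and -0.51, with adjusted p from 0.0190 to 0.367. Ret turned to -0.37 with median centring, -0.84 with quantile normalization, -0.61 with normexp and -0.34 with array weights, and ran from -0.40 to 0.19 with 1 pool left out. Chrna3 turned to -0.23, -0.20, -0.31 and -0.89 under the same 4 settings and ran from -1.12 to 0.82 with 1 pool left out. Hand2 turned to -0.23 with median centring, Nefh to 0.63 with the mean of probes, and Gap43 ran from -0.38 to 0.11 with 1 pool left out. The 6 neuronal lists had 6 genes called lower and from 0 to 15 under the alternatives, with none called higher, the glial list 4 and from 1 to 6, and the endocrine list 6 and from 1 to 9 (chosen after seeing the data). The causes were not tested. Signals near background limit Chrna3, the second Stmn2 probe and the mutant level of Slc6a2.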
